A study of Mus musculus with 27 samples.

Results

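The 6 genes described here, Slc24a3, Cmah, Scn4b, S100a8, Ighm and 0610040B10Rik, were chosen by their counts in ProT cells, which were lower from 12 h after 4-hydroxytamoxifen. They were found by symbol, as 6 of 46078 gene rows in the table of ProT cells, 6 of 46078 in the table of TAL1 and empty-vector mice and 5 of 22906 in the table of AKT(E17K) mice, where Ighm was not analysed here. Because their ProT counts chose them, every ProT value of these genes is a description and carries no test. Thymus of 12 mice, whose values the choice did not use, gave the comparisons that could be tested.

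RNA sequencing counted transcripts per gene in 27 mouse libraries, 3 in each of 9 groups. ProT cells, a mouse line of early T cell type, were collected at 0, 6, 12, 18 and 24 h of 4-hydroxytamoxifen, which per the labels induces TAL1 by way of CreER, a recombinase that the drug activates, and LoxP sites. Thymus came from C57BL/6 mice that had received bone marrow transplants, labelled TAL1 overexpression (TAL1), empty vector (EV), constitutive TAL1 with AKT(E17K) (AKT_TAL1) and AKT(E17K) alone (AKT). AKT(E17K) is an activated form of the kinase AKT1, and both AKT_TAL1 and AKT mice carried it. Promoters of the introduced genes, the age of the mice and the share of donor cells in the thymus are not stated in the labels. All ProT libraries carried the inducible construct, and no ProT library of a later time went without the drug, so time in culture and treatment cannot be told apart. Nothing in the labels tells whether the 3 libraries of each time were grown apart, so a ProT p-value speaks for the spread among these libraries alone, which may be technical.

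TAL1 is a basic helix-loop-helix transcription factor that pairs with E proteins and binds E boxes, short DNA motifs of the form CANNTG. It acts in blood stem cells and in red cell and platelet precursors, is silenced as T cells develop, and is switched on again in many T cell acute leukaemias. The 6 genes share no pathway. Slc24a3 encodes a potassium-dependent sodium/calcium exchanger and Scn4b an auxiliary beta subunit of voltage-gated sodium channels. Cmah encodes the enzyme that turns N-acetylneuraminic acid, the common sialic acid of cell surfaces, into its N-glycolyl form. S100a8 encodes a calcium-binding protein that pairs with S100a9 and is abundant in neutrophils. Ighm is the constant region of the IgM heavy chain, and 0610040B10Rik is annotated as an antisense transcript of unknown function.

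ProT libraries held 2660641 to 6599146 counts in genes. The mice held 7155918 to 11302098 (TAL1), 3893990 to 5915285 (EV), 2230143 to 2792084 (AKT_TAL1) and 2073752 to 3661056 (AKT). The Tal1 row did not follow the labels. It stood at 2895, 3028 and 3098 CPM (counts per 1000000 counts, scaled by library) in the 0 h libraries, 3033, 3608 and 3045 after 6 h, 2259, 2227 and 1779 after 12 h, 2149, 2233 and 2358 after 18 h and 2068, 2026 and 1963 after 24 h, so it was already high at 0 h and was lower at 24 h (log2 fold change -0.57 ± 0.12 SE, edgeR adjusted p = 0.00172). In thymus Tal1 had no count in any TAL1, EV or AKT_TAL1 mouse, and 1 AKT mouse, m121, had 2.24 CPM. Whether this row counts the introduced TAL1 is not given in the sources used here, so the labels were not checked by it. ProT cells had T lineage transcripts (Cd3, Lck, Thy1 and others summed to 914 to 950 CPM at 0 h), while Cd4, Cd8a and Cd8b1 had no count at 0 h. Thymus T lineage sums were 8730 to 9201 CPM in TAL1 and 6818 to 8073 CPM in EV mice, and 4323 to 5709 CPM in AKT_TAL1 and 4760 to 4938 CPM in AKT mice. Granulocyte and monocyte markers (15 genes) summed to 321 CPM in TAL1 mouse M318 and to 764 CPM in AKT mouse m121, the highest sums of their tables.

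The sequence before each gene's start is shown because E boxes are the motif TAL1 complexes bind. That these genes moved together in ProT cells follows from how they were chosen, and nothing is read from it. RefSeq (GRCm38.p6) held a promoter window for 5 of the 6 genes, all but Ighm, and the 250 bases before the RefSeq start of 4 of them are printed 5′ to 3′ on the gene's strand, with every CANNTG match in capitals. All 4 lie on the plus strand, Cmah at chr13:24327154-24327403, S100a8 at chr3:90668821-90669070, Slc24a3 at chr2:145167525-145167774 and 0610040B10Rik at chr5:143329058-143329307.
Cmah: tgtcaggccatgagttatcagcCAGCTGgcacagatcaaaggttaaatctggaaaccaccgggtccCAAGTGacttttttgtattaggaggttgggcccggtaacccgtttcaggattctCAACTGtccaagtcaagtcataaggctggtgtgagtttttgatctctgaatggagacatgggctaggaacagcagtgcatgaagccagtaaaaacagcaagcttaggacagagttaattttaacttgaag
S100a8: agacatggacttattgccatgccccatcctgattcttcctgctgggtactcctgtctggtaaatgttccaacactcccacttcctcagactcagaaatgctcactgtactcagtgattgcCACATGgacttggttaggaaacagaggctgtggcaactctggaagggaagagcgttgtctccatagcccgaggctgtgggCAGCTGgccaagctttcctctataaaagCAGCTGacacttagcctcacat
Slc24a3: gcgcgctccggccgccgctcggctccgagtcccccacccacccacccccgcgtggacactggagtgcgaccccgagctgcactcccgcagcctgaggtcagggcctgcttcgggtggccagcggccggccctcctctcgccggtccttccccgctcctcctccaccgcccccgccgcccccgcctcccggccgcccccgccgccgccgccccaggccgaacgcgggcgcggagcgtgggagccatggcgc
0610040B10Rik: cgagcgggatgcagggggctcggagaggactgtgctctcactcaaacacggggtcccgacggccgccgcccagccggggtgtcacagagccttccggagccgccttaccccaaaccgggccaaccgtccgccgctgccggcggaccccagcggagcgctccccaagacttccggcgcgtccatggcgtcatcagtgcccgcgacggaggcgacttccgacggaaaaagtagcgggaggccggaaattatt
The Cmah window held 3 E boxes, at -228, -184 and -130 from the start, the S100a8 window held 3, at -130, -50 and -22, and the windows of Slc24a3, Scn4b and 0610040B10Rik held none. The window before a further RefSeq start of Cmah had CAGCTG at -24 and AGATAA at -156. An E box of any kind was present in 66.22% of 32817 windows of this length, so its presence in Cmah and S100a8 was common. The E box form CAGCTG, a subset of CANNTG found at -228 in Cmah and at -50 and -22 in S100a8, was present in 13.01%. The motif TATAAA lay at -30 in S100a8, a place usual for a TATA box, and in 12.37% of all windows. Other motifs searched, on both strands like the others, were the E box forms CAGATG (in 14.46% of windows) and CAGGTG (17.22%), the GATA factor motif AGATAA (9.992%) and the RUNX factor motif TGTGGT (14.04%). None of these was in the 5 windows at the starts described here. The windows of Slc24a3 and 0610040B10Rik were rich in G and C (80.8% and 68.8%), against a median of 52.4% over all windows, and those of Cmah and S100a8 were not (45.6% and 50.8%). A match is a description of the letters and not a site of binding. GENCODE M21 places the start of S100a8, Slc24a3 and 0610040B10Rik 93, 21 and 61 bases upstream of the RefSeq start, within the printed windows. For Scn4b it lies 229 bases upstream, so most of the 250 bases searched for Scn4b come after the GENCODE start.

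The genes lie on different chromosomes of GRCm38: Slc24a3 on chr2:145167754-145642166, Cmah on chr13:24327404-24477377, Scn4b on chr9:45138395-45154152, S100a8 on chr3:90668978-90670035 and 0610040B10Rik on chr5:143329247-143332704, all on the plus strand, and Ighm on chr12:113418558-113422730 on the minus strand. The exons of 0610040B10Rik overlap those of Zdhhc4 on the opposite strand by 10 bases, 0.48% of its exon length. The strand setting of the counting is not given in the sources used here, so reads in those bases cannot be assigned. Zdhhc4 itself stood at 38.0 ± 0.46 CPM at 24 h and 36.7 ± 3.6 CPM at 0 h (SD, n = 3 each). No exon of the other 5 genes overlaps an exon of another gene in this annotation.

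In ProT cells the 6 genes held close to their starting level at 6 h and were lower in all libraries at 12, 18 and 24 h than in any library at 0 h. None was lost: at 24 h Scn4b stood at 20.3% of its 0 h mean, Slc24a3 at 32.4%, Cmah at 33.2%, 0610040B10Rik at 37.6%, Ighm at 38.9% and S100a8 at 41.2%. Groups that did not overlap, with the later time lower, were found for 14.8% of all 13610 genes tested at 12 h, 16% (2178 genes) at 18 h and 20.1% at 24 h, against 4.64% at 6 h. These shares are background only, since the same counts chose the members, and nothing is read from 6 of 6. All 4 times share the 0 h libraries, so the 4 values of a gene are not independent of each other.

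**Figure D1:**
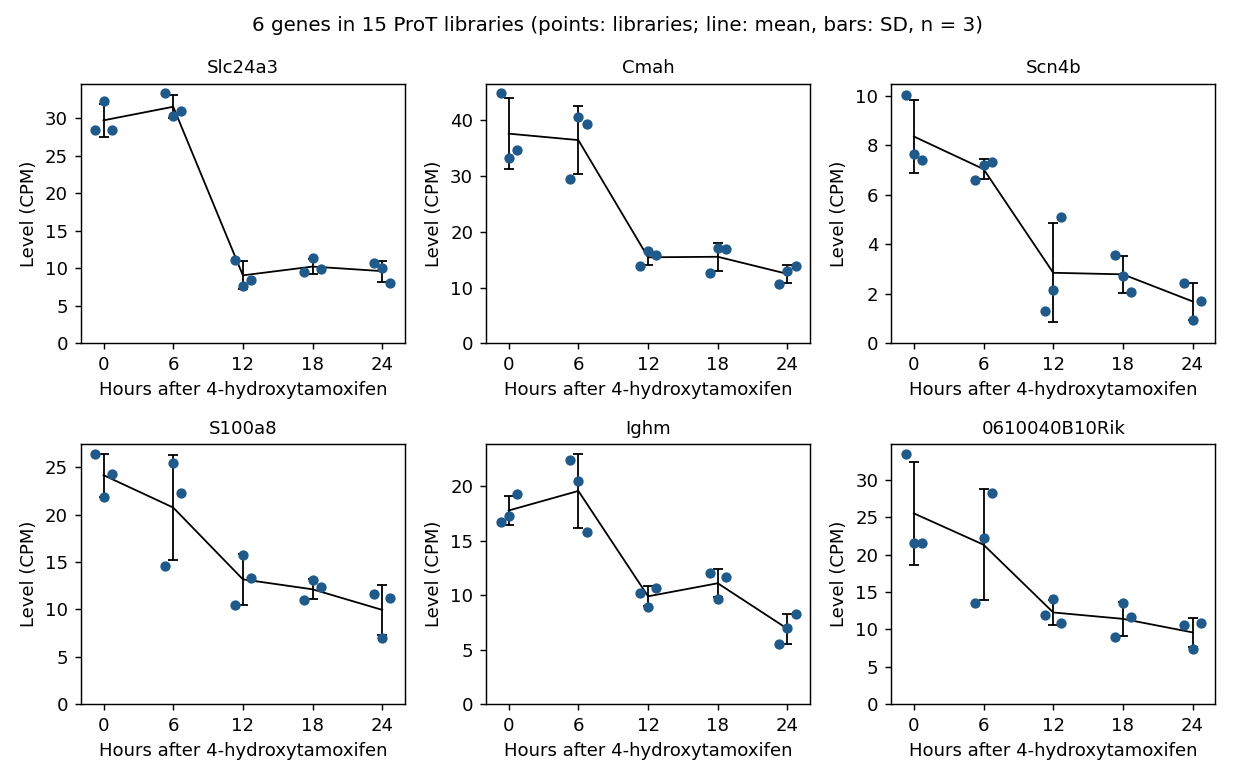
Level (CPM) of each of the 6 genes in the 15 ProT libraries by hours after 4-hydroxytamoxifen; points are libraries, the line joins means and bars are SD (n = 3 per time). Every 12, 18 and 24 h library lies below every 0 h library in all 6 panels, while at 6 h only Scn4b has no overlap with 0 h.

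Slc24a3, the sodium/calcium exchanger, changed as a step. It had 28.4, 32.3 and 28.4 CPM in the 0 h libraries, 33.3, 30.4 and 30.9 after 6 h, 11.2, 7.65 and 8.40 after 12 h, 9.48, 11.3 and 9.91 after 18 h, and 10.7, 10.1 and 8.07 after 24 h. The 0 and 6 h libraries overlapped, the 12, 18 and 24 h libraries overlapped, and a gap separated these sets. The log2 fold change was -1.79 ± 0.17 (SE) at 12 h against 6 h and 0.09 ± 0.19 at 24 h against 12 h. At 12 h against 6 h, 12.1% of all genes lay lower without overlap, and Slc24a3, Cmah, Scn4b and Ighm did. Of all genes tested, 50 had a lower log2 fold change than Slc24a3 at 12 h against 0 h, a rank that its choice by these counts favoured.

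Cmah, the sialic acid hydroxylase, had 44.8, 33.2 and 34.7 CPM in the 0 h libraries, 29.5, 40.5 and 39.2 after 6 h, 13.9, 16.5 and 15.8 after 12 h, 12.6, 17.01 and 16.9 after 18 h, and 10.6, 12.96 and 13.8 after 24 h. It too fell into a high set (0 and 6 h) and a low set (12 h on), with the 24 h libraries lying just below the 12 h ones (log2 fold change -0.31 ± 0.18 SE), as did those of Ighm, 0610040B10Rik and 6.71% of all genes. Relative to 0 h its log2 fold change was -1.27 ± 0.17 at 12 h and -1.58 ± 0.17 at 24 h.

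Scn4b, the sodium channel subunit, had the lowest CPM of the 6 genes at each time and the largest fold change at 24 h. Its counts were 24, 27 and 38 in the 0 h libraries, 43, 32 and 33 after 6 h, 9, 14 and 25 after 12 h, 17, 11 and 12 after 18 h, and 16, 6 and 8 after 24 h. These gave 10.04, 7.65 and 7.40 CPM in the 0 h libraries, 6.60, 7.20 and 7.34 after 6 h, 1.31, 2.14 and 5.12 after 12 h, 3.58, 2.71 and 2.09 after 18 h, and 2.45, 0.948 and 1.70 after 24 h. The 6 h libraries lay just under the lowest 0 h library, and 12 h library 3 lay apart from the other 12 h libraries. Without that library the log2 fold change at 12 h was -2.24, against -1.59 ± 0.38 (SE) with it. At 24 h it was -2.25 ± 0.40, and 12 of all genes tested had a lower value, a rank that the choice of the gene also favoured.

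S100a8, the neutrophil-associated calcium-binding protein, changed most between 6 and 12 h. It had 26.4, 21.8 and 24.3 CPM in the 0 h libraries, 14.6, 25.4 and 22.3 after 6 h, 10.5, 15.8 and 13.3 after 12 h, 10.96, 13.1 and 12.3 after 18 h, and 11.7, 6.95 and 11.2 after 24 h. The 6 and 12 h libraries overlapped because 6 h library 1 was low. Over all genes, that library differed from 6 h libraries 2 and 3 (chi-square per gene 22.8 and 18.7) more than they did from each other (3.78). The same was so for 12 h library 1 against 12 h libraries 2 and 3 (19.9 and 18.4, against 7.31 between them). The log2 fold change of S100a8 was -0.64 ± 0.21 (SE) at 12 h against 6 h. It was -0.12 ± 0.22 at 18 h against 12 h and -0.29 ± 0.23 at 24 h against 18 h, with overlap in each. Relative to 0 h it was -0.87 ± 0.21 at 12 h and -1.28 ± 0.22 at 24 h.

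Ighm had 16.7, 17.3 and 19.3 CPM in the 0 h libraries, 22.4, 20.5 and 15.8 after 6 h, 10.2, 8.87 and 10.7 after 12 h, 12.01, 9.62 and 11.7 after 18 h, and 5.52, 6.95 and 8.28 after 24 h. At 24 h all 3 libraries lay below all 18 h libraries (log2 fold change -0.70 ± 0.21 SE), as they did for 9.57% of all genes tested. The other 5 genes overlapped between 18 and 24 h, though Scn4b had a like log2 fold change of -0.69 ± 0.45. Between 12 and 18 h all 6 overlapped, where 5.54% of all genes lay lower without overlap.

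The antisense transcript 0610040B10Rik varied most between libraries at the early times, with 33.5, 21.5 and 21.6 CPM in the 0 h libraries and 13.5, 22.3 and 28.3 after 6 h. Later libraries had 11.9, 14.1 and 10.9 CPM (12 h), 9.06, 13.6 and 11.7 CPM (18 h), and 10.6, 7.43 and 10.8 CPM (24 h). Like S100a8 it was low in 6 h library 1, which gave the overlap between 6 and 12 h. Its log2 fold change at 24 h was -1.38 ± 0.24 (SE).

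**Figure D2:**
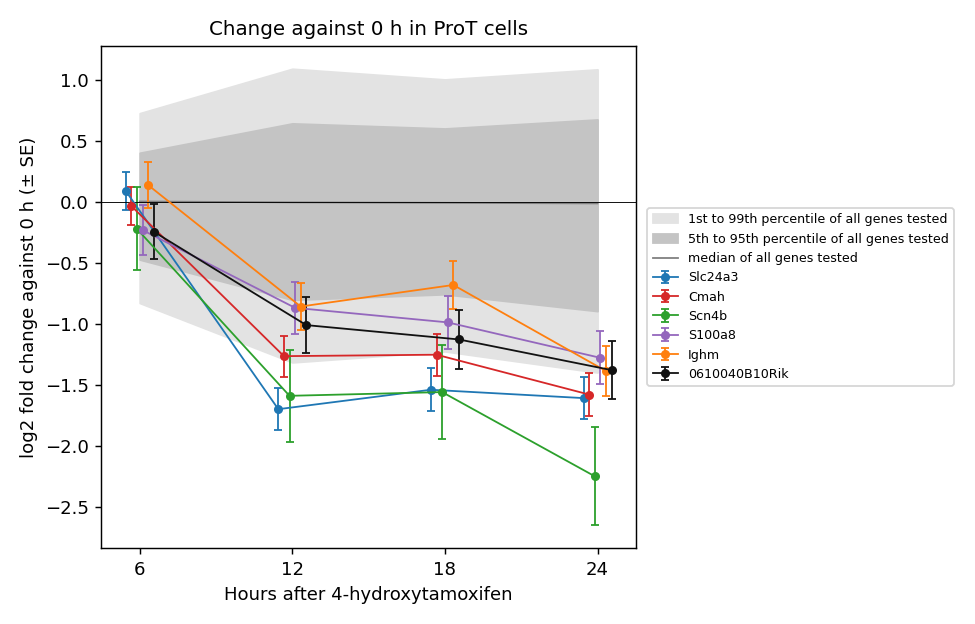
Log2 fold change against 0 h (y axis, ± SE) of the 6 genes at 6, 12, 18 and 24 h (x axis), over grey bands for the 5th to 95th and 1st to 99th percentiles of all 13610 genes tested. The genes lie near 0 at 6 h and toward the lower end of the bands or below them from 12 h, as their choice by these counts favoured. Scn4b reaches -2.25 at 24 h.

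Per kilobase of exon, S100a8 had the highest level at 0 h (34.8 ± 3.27 CPM per kb, SD, n = 3), followed by 0610040B10Rik (12.2 ± 3.27), Ighm (9.42 ± 0.71), Slc24a3 (6.51 ± 0.49), Cmah (3.52 ± 0.59) and Scn4b (1.68 ± 0.29). Over the 15 ProT libraries, log2 levels of the 6 genes correlated with each other at Pearson r 0.702 (Ighm with 0610040B10Rik) to 0.949 (S100a8 with 0610040B10Rik), values that contain the time step all 6 were chosen for. The genes whose levels were most like each member over those libraries, given as a description, were Calcrl, Arhgap6 and Tnik for Slc24a3 (r 0.968, 0.965 and 0.963) and Carns1, Lpar6 and Ctsw for Cmah (0.985, 0.968 and 0.967). They were Lat, Gbp4 and Fam210a for Scn4b (0.945, 0.942 and 0.933), and Tpst2, Ipcef1 and Atp2b4 for Ighm (0.917, 0.911 and 0.907). Tgs1 headed the list for both S100a8 (0.957, with Vamp1 at 0.949 and Spink10 at 0.946) and 0610040B10Rik (0.955, with mt-Ts1 at 0.952 and Cep295 at 0.945). Lpar6, a receptor for lysophosphatidic acid, was the most abundant of those named for Cmah, with 277 ± 7.35 CPM at 24 h and 681 ± 46.1 CPM at 0 h (SD, n = 3 each).

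S100a9, the partner of S100a8 and its neighbour 22596 bases away, fell beside it in ProT cells. It had 14.2, 18.1 and 18.1 CPM in the 0 h libraries, 10.3, 15.3 and 18.7 after 6 h, 7.84, 9.33 and 9.84 after 12 h, 7.59, 9.86 and 11.5 after 18 h, and 5.67, 5.21 and 8.49 after 24 h. In edgeR's quasi-likelihood test it was called lower at each time from 12 h. The log2 fold change was -0.93 ± 0.23 (SE) after 12 h, with adjusted p = 0.0089. After 18 h it was -0.81 ± 0.24, with adjusted p = 0.0297, and after 24 h -1.42 ± 0.24, with adjusted p = 0.000246. Of all genes tested, 5.69% were called lower and 6.33% higher at 12 h (12.0% in all), 3.92% and 4.89% after 18 h (8.82%), and 9.30% and 9.43% after 24 h (18.7%). After 6 h the share was 0%. The ratio of S100a8 to S100a9 counts ranged over 1.08 to 2.05 across the 15 ProT libraries. Of 8 other S100 genes tested, 3 fell at 24 h, S100a4 (log2 fold change -1.01 ± 0.15), S100a9 and S100g (-1.51 ± 0.41, adjusted p = 0.0104), and none rose, though 1 rose when libraries were scaled by total counts only or without 0 h library 3. The median of the 8 was -0.49, against -0.01 over all genes. The S100g call was lost without 24 h library 1 (adjusted p = 0.0605). The summed level of 15 granulocyte and monocyte markers, S100a9 among them, ranged over 56.4 to 64.0 CPM at 24 h and 58.6 to 73.7 CPM at 0 h, and 2 of 8 tested fell (S100a9 and Ngp). Cd14 had no count at either time.

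Other genes of each pathway in ProT cells were given by lists of genes with related functions. Among 16 calcium-handling genes tested beside Slc24a3, none rose at 24 h and 1 fell, as did 9.30% of all genes. The median log2 fold change of the 16 was 0.02. The gene that fell was Atp2b4, a plasma membrane calcium pump. It had 101, 94.96 and 108 CPM at 24 h and 144, 175 and 159 CPM at 0 h (log2 fold change -0.66 ± 0.11 SE, edgeR adjusted p = 0.000155). At 12 h Atp2b4 (-0.64 ± 0.11, adjusted p = 0.000235) and Orai2, a store-operated calcium channel subunit (-0.75 ± 0.16, adjusted p = 0.0023), both fell. When libraries were scaled by total counts only, 2 of the 16 rose at 24 h and Atp2b4 still fell.

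Scn3a was the only other sodium channel gene above the filter in ProT cells. It was called lower at 12 h (log2 fold change -1.76 ± 0.57, edgeR adjusted p = 0.0432), on 6, 3 and 3 counts against 4, 12 and 9 at 0 h. It was not called at 18 h (-0.40 ± 0.51, adjusted p = 0.678) or 24 h (-0.70 ± 0.51, adjusted p = 0.355). Its call was not followed in other fits. Scn2b, 8324 bases from Scn4b, had 2 counts in total at 24 h and 6 at 0 h.

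Of 20 sialic acid genes tested beside Cmah at 24 h, 2 rose and 4 fell, against 9.43% and 9.30% of all genes, with a median of -0.01. The genes that fell were St8sia4, a polysialyltransferase (-0.71 ± 0.12, edgeR adjusted p = 0.000151), St8sia1, St6galnac2 and St6galnac3, and those that rose were St3gal2 and St6galnac4. St8sia4 was called lower in all 7 other fits run (scaling by total counts only, and without each 0 h or 24 h library), and St6galnac2 in 2 of them. St3gal2 was called in 4 of the 7, St8sia1 in 3, and St6galnac3 and St6galnac4 in 6 each. The count of lower genes was 2 without 0 h library 3 and 2 when scaled by total counts. The count of higher genes was 0 without 0 h library 1, 1 without 0 h library 3 or 24 h library 2, and 3 when scaled by total counts. Gne, Nans and Cmas, which make and activate sialic acid, were not called at 24 h (adjusted p = 0.834, 0.194 and 0.409).

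No immunoglobulin constant gene other than Ighm passed the filter in ProT cells, and Ighd and Igkc had no count in any of the 15 libraries. Ms4a1 and Pax5, defining B cell genes, also had none. The 13 B lineage markers, which do not include Ighm, summed to 7.82 to 14.9 CPM at 24 h and 9.20 to 13.2 CPM at 0 h, and none of the 3 tested was called at 24 h. The genes listed in these paragraphs for ProT cells were chosen with results known.

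In thymus the 6 genes did not share a pattern. Cmah was lower in TAL1 than in EV mice, the S100a8 difference was set by a single mouse, and Slc24a3 was scarcely counted. Scn4b, Ighm and 0610040B10Rik did not differ beyond the spread between TAL1 and EV mice. Whole tissue was sequenced, so fewer cells of a type and less RNA per cell cannot be told apart.

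**Figure D3:**
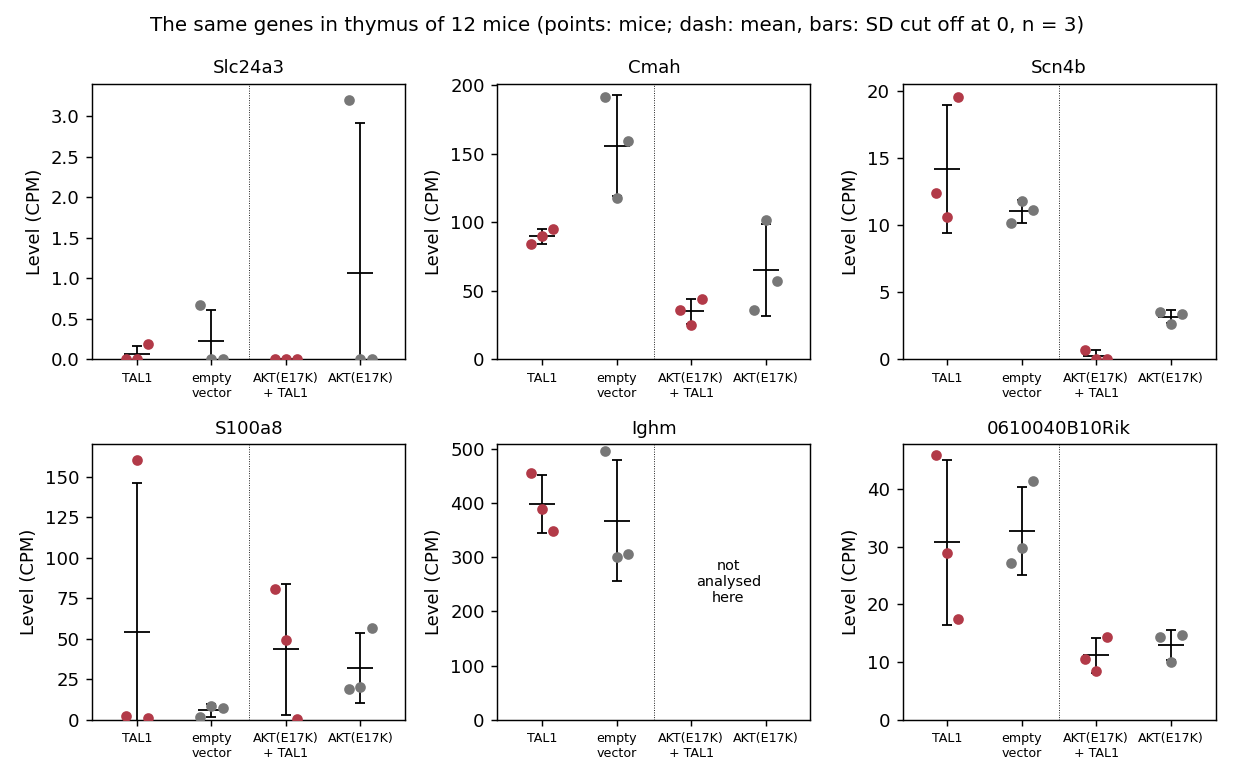
Level (CPM) of the 6 genes in thymus of 12 mice, TAL1 and empty vector on the left of each dotted line and AKT(E17K) with TAL1 and AKT(E17K) on the right; points are mice, dashes are means and bars are SD cut off at 0 (n = 3). Cmah shows no overlap between TAL1 and empty vector, and 1 TAL1 mouse holds the S100a8 value of 160.0 CPM.

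Cmah had 84.2, 89.8 and 95.01 CPM in TAL1 mice and 191, 118 and 159 CPM in EV mice. The groups did not overlap, as was so with TAL1 lower for 11.5% of the 12357 genes tested. The means were 89.7 ± 5.41 and 156 ± 36.9 CPM (SD, n = 3 each), a log2 fold change of -0.80 ± 0.15 (SE, edgeR adjusted p = 0.00934), in a comparison that called 5.04% of genes, with 2.88% lower and 2.16% higher. The call was lost without TAL1 mouse M317 (log2 fold change -0.76, adjusted p = 0.0504) and in a fit over all 12 mice (-0.81 ± 0.31, adjusted p = 0.424), which called 5 genes in all for this contrast. In AKT_TAL1 mice Cmah had 35.6, 25.1 and 43.8 CPM, against 35.6, 102 and 57.3 CPM in AKT mice (log2 fold change -0.89 ± 0.39, edgeR adjusted p = 0.68). These groups overlapped, and 0% of the 9782 genes tested were called in that comparison. At an unadjusted p under 0.05 it had 321 genes higher and 388 lower, and DESeq2 called 76. The difference between the TAL1 effect with and without AKT(E17K) was -0.06 ± 0.45 for Cmah (edgeR adjusted p = 0.982), where 0.164% of 10947 genes were called.

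Some genes of sialic acid transfer fell beside Cmah in TAL1 mice, in a list chosen with earlier results of these data known. Of 20 other sialic acid genes tested, 4 fell and none rose, where 2.88% of all genes fell and 2.16% rose. The median log2 fold change of the 20 was -0.30, against -0.00 over all genes. St6gal1, which adds alpha-2,6-linked sialic acid, had 34.2, 27.5 and 39.1 CPM in TAL1 mice and 71.7, 96.7 and 80.8 CPM in EV mice (log2 fold change -1.30 ± 0.17 SE, edgeR adjusted p = 0.00112). St8sia6 had 0.286, 0.137 and 1.17 CPM in TAL1 mice and 9.98, 7.46 and 7.15 CPM in EV mice (-3.79 ± 0.67, edgeR adjusted p = 0.00599). For St3gal1 and St3gal6, which add alpha-2,3-linked sialic acid, the log2 fold changes were -0.95 ± 0.19 (edgeR adjusted p = 0.0103) and -1.47 ± 0.31 (adjusted p = 0.0143). No TAL1 mouse overlapped an EV mouse for any of these 4 genes. Without EV mouse M312 the count fell to 2, losing St3gal1 and St3gal6, and the fit over all 12 mice called none of 21. Gne, Nans and Cmas were at -0.06, 0.23 and -0.01 and were not called. In AKT_TAL1 against AKT mice none of 15 tested was called (median -0.22). Of genes that mark mature T cells, 4 (Ccr7, S1pr1, Klf2 and Il7r, chosen with results known) summed to 70.1 to 121.8 CPM in TAL1 mice and 412 to 467 CPM in EV mice. All 4 fell, but their choice had fixed this, so nothing is read from it. They summed to 30.4 to 32.2 CPM in AKT_TAL1 mice and 6.32 to 29.3 CPM in AKT mice, where 0 of 2 tested were called. Double-positive thymocyte markers summed to 8165 to 9399 CPM in TAL1 mice and 5958 to 7366 CPM in EV mice, and 3 of 7 rose. The part of either cell type in the Cmah and sialyltransferase values was not tested.

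**Figure D4:**
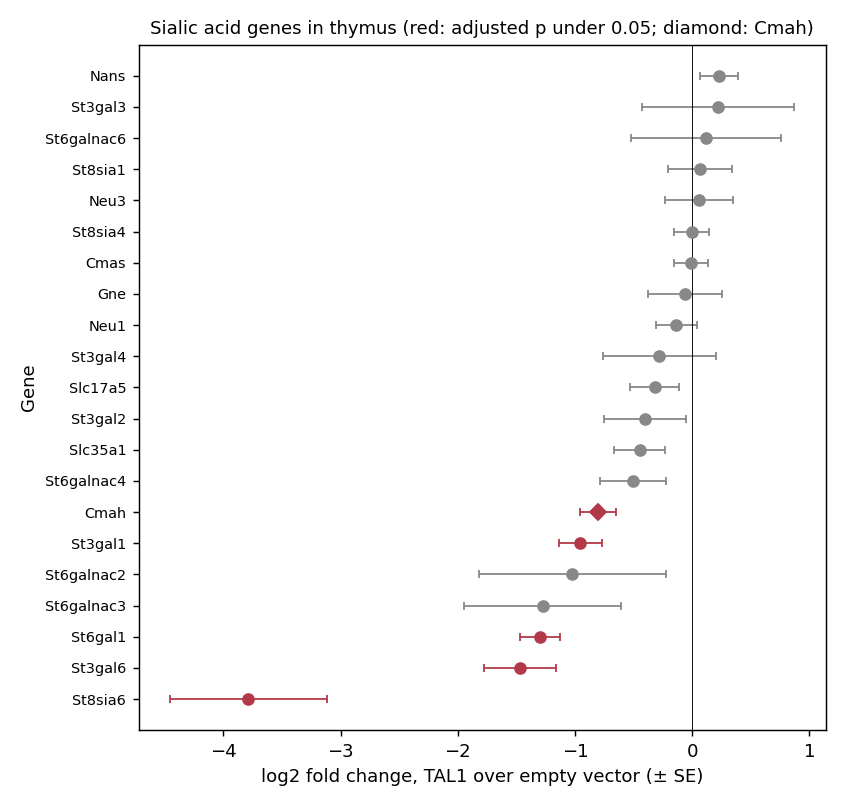
Log2 fold change of TAL1 over empty-vector thymus (x axis, ± SE) for Cmah (diamond) and 20 other sialic acid genes (y axis); red marks an edgeR adjusted p under 0.05. St8sia6, St3gal6, St6gal1, St3gal1 and Cmah are red and negative, and no gene is red and positive.

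Slc24a3 was scarcely counted in thymus. Its counts were 0, 0 and 2 in TAL1 mice and 4, 0 and 0 in EV mice, and 0, 0 and 0 in AKT_TAL1 mice and 10, 0 and 0 in AKT mice. It passed the filter in neither table and was not tested across genes. A count of 0 over the 3 AKT_TAL1 mice allows up to 0.39 CPM (3 counts over their summed depth, counting error only). The 10 counts, 3.20 CPM, came from AKT mouse m121, which was also the only mouse with a Tal1 count and had the highest granulocyte and erythroid marker sums of its table (764 and 937 CPM). The highest mean thymus level, 1.07 CPM in AKT mice, was below the 9.08 ± 1.86 CPM (SD, n = 3) of ProT cells at 12 h, with the tables normalised separately. None of 14 calcium-handling genes tested was called in TAL1 against EV mice, where 5.04% of all genes were, so nothing is read from it.

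Scn4b had 12.4, 10.6 and 19.6 CPM in TAL1 mice and 10.1, 11.8 and 11.2 CPM in EV mice, which overlapped (log2 fold change 0.37 ± 0.29 SE, edgeR adjusted p = 0.581). In AKT_TAL1 mice it had 2, 0 and 0 counts, against 11, 5 and 13 counts in AKT mice, or 0.704, 0 and 0 CPM against 3.52, 2.63 and 3.34 CPM. These groups did not overlap, as with AKT_TAL1 lower for 5.72% of genes tested, but Scn4b was under the filter there. An exact two-sided permutation test gave p = 0.1, the smallest that 3 against 3 mice allow. The ratio of pooled counts per depth was 0.0808 (95% exact interval 0.00935 to 0.32, counting error only). Scn4b entered the fit over 12 mice through the TAL1 and EV mice, where it is higher. There the fitted TAL1 effect with AKT(E17K) minus that without it was -3.88 on the log2 scale. This value rests on 2 counts in AKT_TAL1 mice and is no bound. No test is given for it, because the TAL1 and EV mice carried the gene past the filter. Both counts came from mouse m116, and without it the AKT_TAL1 mice have none.

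S100a8 varied widely between mice of a group in thymus. It had 2.14, 160.0 and 1.08 CPM in TAL1 mice and 1.497, 8.75 and 7.36 CPM in EV mice. The high mouse, M318, set the log2 fold change of 3.27 ± 1.35 (SE, edgeR adjusted p = 0.228), and without it the value was -1.87 (adjusted p = 0.29). With no filter on low counts the adjusted p was 3.6e-35. S100a9 had 0.715, 137 and 0.989 CPM in TAL1 mice and 1.16, 2.32 and 5.68 CPM in EV mice, high in the same mouse, as were Lyz2 at 56.2 CPM and Ngp at 52.8 CPM. The part of granulocytes in these values was not tested. In AKT_TAL1 mice S100a8 had 81.0, 49.1 and 0.466 CPM, against 18.9, 20.02 and 56.6 CPM in AKT mice (log2 fold change 0.45 ± 0.95, edgeR adjusted p = 0.932, and -0.35 without AKT_TAL1 mouse m116). S100a9 stood at 48.6, 48.01 and 0.466 CPM in AKT_TAL1 mice and 22.1, 5.79 and 41.7 CPM in AKT mice. The difference between the TAL1 effects with and without AKT(E17K) was -2.76 ± 2.02 (adjusted p = 0.646), and 2.31 without TAL1 mouse M318.

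**Figure D5:**
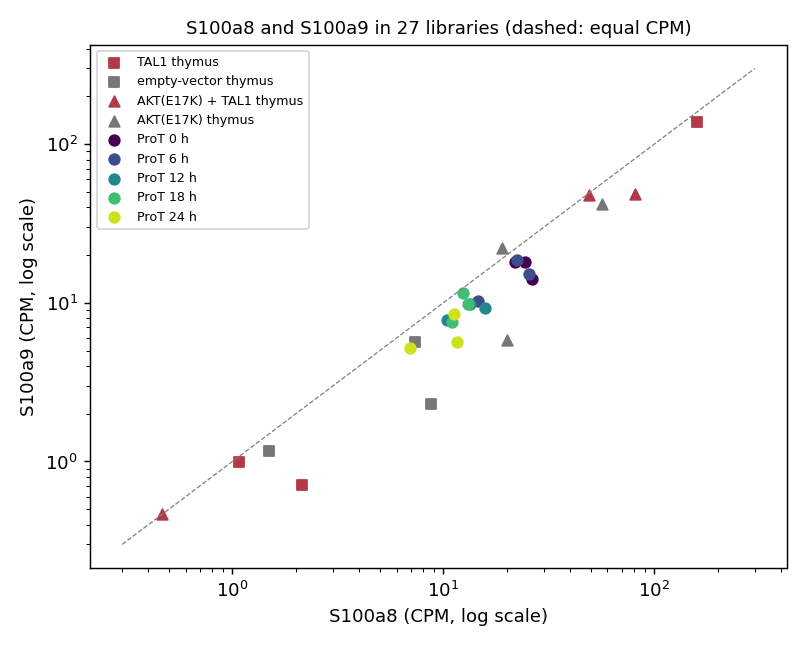
S100a8 (x axis) against S100a9 (y axis), both in CPM on log scales, in each of 27 libraries; the dashed line marks equal CPM. Most libraries lie on the S100a8 side of the line, by up to 3.78 times in EV mouse M312. They spread from 0.466 CPM of each gene (1 count each) in AKT(E17K) with TAL1 mouse m119 to 160.0 and 137 CPM in TAL1 mouse M318. The ProT libraries lie between.

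Ighm had 455, 389 and 349 CPM in TAL1 mice and 496, 299.9 and 306 CPM in EV mice, which overlapped (log2 fold change 0.11 ± 0.17 SE, edgeR adjusted p = 0.813). These levels lay above every ProT library, the highest of which had 22.4 CPM. B lineage markers were low beside it, summing to 16.5 to 38.2 CPM in TAL1 mice and 21.3 to 43.4 CPM in EV mice, and the kappa light chain Igkc averaged 3.25 ± 4.48 and 12.01 ± 7.79 CPM in TAL1 and EV mice (SD, n = 3 each). None of the 3 other immunoglobulin constant genes tested, Igkc, Igha and Ighd, was called.

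0610040B10Rik had 45.9, 28.9 and 17.5 CPM in TAL1 mice and 27.1, 29.8 and 41.5 CPM in EV mice (log2 fold change -0.10 ± 0.30 SE, edgeR adjusted p = 0.914). In AKT_TAL1 mice it had 10.6, 8.47 and 14.4 CPM, against 14.4, 10.01 and 14.7 CPM in AKT mice (-0.24 ± 0.39, edgeR adjusted p = 0.914). The groups overlapped in each comparison. The difference between the TAL1 effects was -0.13 ± 0.50 (adjusted p = 0.955).

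Ordered by mean level over the groups, with each table normalised on its own, the genes differed in where they stood highest. Slc24a3 was highest in ProT cells at 6 h (31.5 ± 1.56 CPM) and 0 h (29.7 ± 2.24), which overlapped, and its ProT libraries at 12, 18 and 24 h overlapped their neighbours in the order and stood clear of every thymus group. Cmah was highest in EV thymus (156 ± 36.9), then TAL1 thymus (89.7 ± 5.41), whose mice overlapped those of the AKT group next in order (64.9 ± 33.7). AKT mice overlapped ProT cells at 0 h, which overlapped ProT cells at 6 h, and these overlapped AKT_TAL1 mice (34.8 ± 9.39). Scn4b was highest in TAL1 and EV thymus, which overlapped, stood clear of each next group in ProT cells at 0 h and at 6 h, and was lowest in AKT_TAL1 thymus. For S100a8 each group overlapped the next in the order. Ighm was highest in TAL1 and EV thymus, with no overlap with ProT cells. For 0610040B10Rik, highest in EV thymus (32.8 ± 7.61), each group overlapped the next (all SD, n = 3).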

How the data were processed

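The authors deposited raw counts per gene in 3 tables. Per the submitters' processing notes, FastQC, HISAT2, SAMtools and HTSeq were used with builds mm10 and GRCm38; versions, annotation release and strand setting are not given in the sources used here. HTSeq summary lines (5 in each of 2 tables) were left out of library sizes; reads in no feature made up 17.8 to 18.4% of ProT lines at 24 h and 21.1 to 22.2% at 0 h. Tests used edgeR 4.0.16 in R 4.3.3 (TMM, filterByExpr, quasi-likelihood F test, Benjamini-Hochberg adjustment, threshold 0.05) over 13610 ProT genes (15 libraries in 1 fit), 12357 genes of TAL1 and EV mice and 9782 of AKT mice; the difference of effects used 10947 symbols in 12 mice. CPM were counts over the filtered library size times its TMM factor; SE was the log2 fold change over the root of F. DESeq2 1.42.0 was an alternative. The fits were tested on simulated data. Likeness was Pearson r of log2 CPM with a prior count of 2. Positions came from GENCODE M21. In each of 2 tables, 27 symbols turned into dates were restored.

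Members, gene lists and tests were chosen with earlier results of these data known. Named genes were the 6 members, list and marker genes that passed a thymus test, family partners, neighbours and the 3 genes most like each member; ProT list genes that passed, Lyz2, Ngp, Lpar6 and the mature T cell markers were chosen after their values were seen. ProT replicate numbers showed no pairing of libraries. The correlation of deviations ranged over -0.143 to 0.213 between libraries of the same number and -0.176 to 0.238 between libraries of different numbers. Some genes are not reported here. Replicates of a group differed by more than sampling noise.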

Additional observations from a re-analysis of the deposited data

How the results depend on the processing

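All 6 genes kept negative ProT log2 fold changes at 12, 18 and 24 h in the 11 other fits of each time. The same counts chose the genes, so this sign follows from the choice and nothing is read from it. Ranges at 24 h were -1.69 to -1.42 (Slc24a3), -1.65 to -1.39 (Cmah) and -2.66 to -1.94 (Scn4b). They were -1.43 to -1.06 (S100a8), -1.52 to -1.20 (Ighm) and -1.49 to -1.17 (0610040B10Rik). Under scaling by total counts only, the median log2 fold change of all genes was 0.10, 0.18, 0.13 and 0.17 at 6, 12, 18 and 24 h, against 0.00, -0.01, -0.01 and -0.01 with TMM. With it 2041 genes were called higher and 339 lower at 12 h (861 and 774 with TMM), 1122 and 246 at 18 h (666 and 534), and 2560 and 622 at 24 h (1283 and 1266). DESeq2 called 1 gene at 6 h, where edgeR called 0. Fitting only the 2 times compared called 2244 genes at 18 h, against 1200. A replicate block in ProT cells gave 0, 1639, 1234 and 2662 calls at 6, 12, 18 and 24 h and changed no call count by over 1.5 times; 4 of 15 libraries correlated best with their own number. Leaving out 1 library gave 819 to 1521 calls at 12 h (main 1635), 419 to 1006 at 18 h and 1447 to 2281 at 24 h (main 2549), lowest without 0 h library 2, 18 h library 1 and 0 h library 2.

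TAL1 against EV mice called 623 genes, 1107 with no filter, 5 with all 12 mice in the fit and 337 (without EV mouse M312) to 661 when a mouse was left out. AKT_TAL1 against AKT mice called 0 genes, 30 with no filter, 76 with DESeq2, 24 with all 12 mice and 0 to 8 (without AKT mouse m124) when a mouse was left out. The difference of effects called 18 genes, 58 with no filter, 186 with DESeq2 and 2 to 173 (without AKT mouse m124) when a mouse was left out. The causes of these shifts were not tested. Uncalled thymus values changed sign under some alternative for S100a8, Ighm and 0610040B10Rik (TAL1 against EV) and for S100a8 (AKT_TAL1 against AKT), and so did the differences of effects of Cmah, S100a8 (2.31 without TAL1 mouse M318) and 0610040B10Rik. List counts under other fits were added after seeing the data. Low counts limit Slc24a3 in thymus and Scn4b in AKT(E17K) mice.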
